A study of Homo sapiens with 6 samples.

Results

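Cyclic AMP phosphodiesterases were followed in cells of NCI-H1299, an established line from a human non-small cell lung carcinoma, with or without norepinephrine (NE). The 10 genes were PDE3A, PDE3B, PDE4A, PDE4B, PDE4C, PDE4D, PDE7A, PDE7B, PDE8A and PDE8B, taken by symbol from the 26025 genes of the expression table. They make up 4 families, and all 10 were listed. RNA-seq libraries came from 3 Ctrl and 3 NE samples of the same unmodified line. Both groups were starved in DMEM for 8 to 12 h. They were then kept for 48 h in RPMI-1640 with 2% serum, which for the NE group contained 10 µM NE. For the vehicle of the Ctrl group, DMSO stands in one field of the records and PBS in another. A single line was used, and no record says whether the replicates came from separate cultures or days, so p-values measure only the spread between these libraries.

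Norepinephrine acts on adrenergic receptors, and those of the beta type activate adenylyl cyclases that make cAMP from ATP. Phosphodiesterases end the signal by hydrolysing cAMP to AMP. Enzymes of the PDE4, PDE7 and PDE8 families prefer cAMP, whereas those of the PDE3 family accept both cAMP and cGMP and are inhibited by cGMP. In many tissues PDE4 genes respond to cAMP themselves, through protein kinase A (PKA) and the transcription factor CREB, which makes them a known arm of negative feedback. The comparison therefore asked which of these genes differed in transcript level after 48 h of NE, and by how much.

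In NE-treated cells 3 of the 10 genes, PDE3A, PDE4B and PDE4D, rose by about 8-fold or more. PDE8A and PDE8B rose by 2.09-fold and 2.93-fold. PDE7A rose by 1.94-fold, just under the 2-fold criterion. PDE3B and PDE4A differed by less than 2-fold in opposite directions, and both log2 fold changes changed sign once the libraries were corrected for GC content. PDE7B was seen only in NE-treated cells, at a few reads per library, and PDE4C was at or near 0 in both groups.

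Values are the deposited normalized counts, that is, reads per gene divided by 1 size factor per library. Differences were tested with limma on log2(normalized count + 1) over the 15013 genes whose mean reached 10, with Benjamini-Hochberg adjustment over all of them. A gene was called at an adjusted p under 0.05 and a change of at least 2-fold. By this rule 5 of the 10 genes were called higher and 0 lower, and PDE4C and PDE7B were not tested. Among all tested genes 7.47% were called higher and 6.55% lower. No lower call was made among the 10 genes at an unadjusted p under 0.05 either. On reads recovered from the normalized counts, edgeR, DESeq2 and voom each gave 5 higher and 0 lower calls among the 10, against 7.04%, 7.32% and 7.45% of all genes higher and 7.30%, 6.99% and 6.83% lower. By the adjusted p alone 7 of the 10 genes were higher and 1 was lower, against 24.6% and 25.5% of all tested genes. Among the 8 tested genes, every NE library lay above every Ctrl library in 7 and below in 1, where 29.7% and 28.9% of all tested genes had no overlap in the same way. The untested PDE7B had no overlap either. PDE3A passed the minimum mean only through its NE libraries. The bulk measurement cannot separate a change in RNA per cell from a change in the make-up of the culture, and gene-level counts cannot separate the many transcripts of a PDE4 gene.

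**Figure D1:**
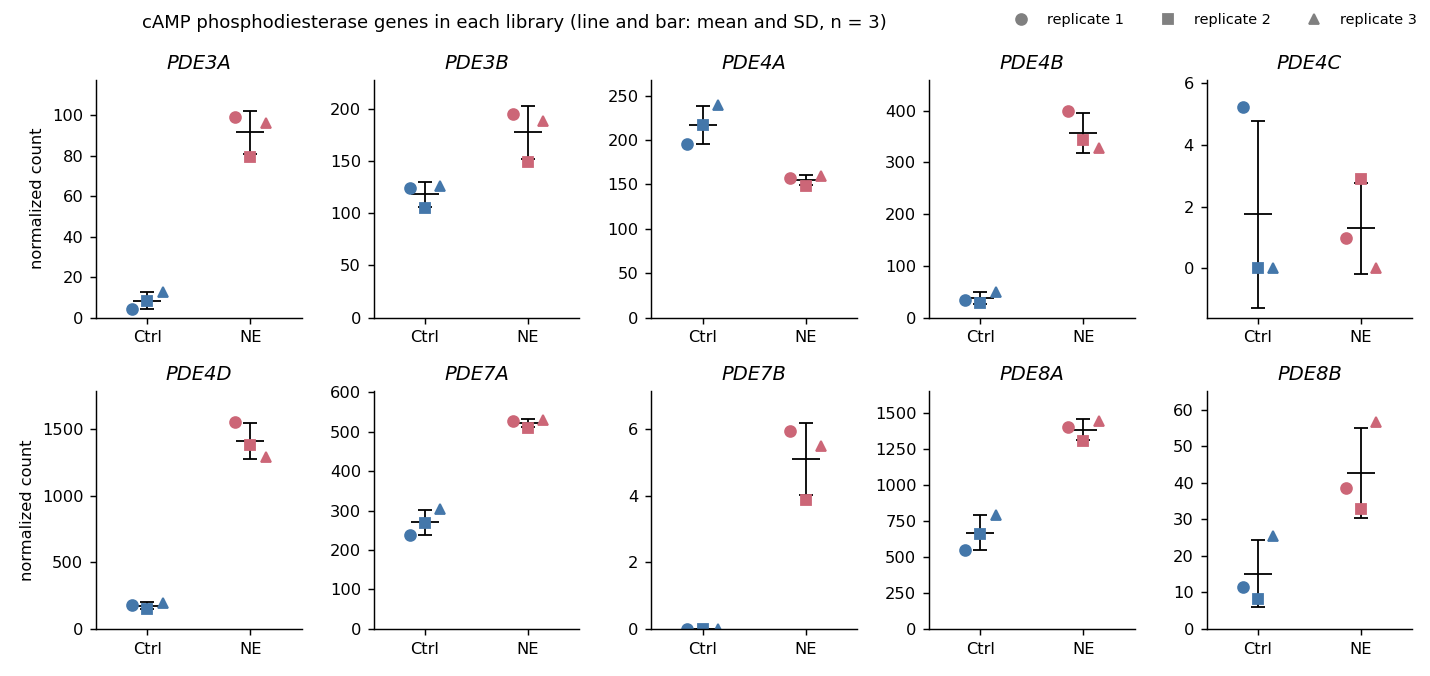
Normalized count (linear y axis, own scale for each gene) of the 10 genes in the 3 Ctrl (blue) and 3 NE (red) libraries, with symbols for replicate number and the mean and SD of each group. The NE libraries lie above all Ctrl libraries for 8 genes and below them for PDE4A, and the groups overlap for PDE4C.

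The libraries were of similar depth, between 16852751 and 17979206 reads on genes. Ctrl replicate 3 stood apart, with 7305 genes at 0 reads where replicates 1 and 2 had 4829 and 4833, and it was the highest Ctrl library in all 8 tested phosphodiesterase genes, against 44.1% of all tested genes. Changes also moved with the GC content of exons. After a smooth trend on GC content had been removed from each library, 3.43% of tested genes were called higher and 2.66% lower, and 4 of the 10 phosphodiesterase genes were called higher. The change of each tested phosphodiesterase gene is therefore also given with this correction and without Ctrl replicate 3. The part of the GC trend and of this library in the results was not tested otherwise. KRT8, KRT18 and VIM were abundant in every library, from 5232 to 78252 normalized counts, whereas the epithelial surface genes EPCAM and CDH1 did not exceed 4.84. KRT18 fell by 1.62 and KRT8 by 1.06 on the log2 scale with NE, where the GC correction gave -1.18 for KRT18 and -0.62, under the 2-fold criterion, for KRT8. Of 11 markers of immune, endothelial, fibroblast and neuroendocrine cells, PTPRC and CD3E were not listed and the other 9 stayed at or under 36.6. Of these COL1A1 was called lower, at 23.5 and 9.20 normalized counts, with a log2 fold change of -1.26 that was -0.71 after the GC correction.

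PDE4D encodes a cAMP-specific enzyme of many isoforms that binds anchoring proteins and beta-arrestins. The gene (ENSG00000113448) occupies 58969038 to 60522120 on chromosome 5 of hg38, minus strand. Its span of 1553 kb was at least as long as that of 99.96% of the tested genes with an annotation. Its normalized counts were 180.1, 146 and 197 in the Ctrl libraries and 1552, 1384 and 1288 in the NE libraries. The lowest NE library was thus far above the highest Ctrl library. The means were 174 ± 25.8 and 1408 ± 134 (SD, n = 3 each), a rise of 3.01 on the log2 scale (SE 0.147, 95% interval 2.68 to 3.34, adjusted p = 3.98e-06 from limma). The rise was 2.53 after the GC correction and 3.10 without Ctrl replicate 3. Among all tested genes it was the rise of rank 37.

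PDE4B is the paralogue best known from immune cells and brain, where it is induced by cAMP. It lies on the plus strand of chromosome 1 from 65792514 to 66374579 (ENSG00000184588). The Ctrl libraries held 33.5, 29.0 and 49.98 normalized counts, and the NE libraries 399, 344 and 327. No library of one group came near the other. The log2 fold change was 3.25 (SE 0.226, 95% interval 2.74 to 3.76, adjusted p = 3.18e-05 from limma), with 2.85 after the GC correction and 3.47 without Ctrl replicate 3. PDE4B and PDE4D moved by similar amounts. The ratio of their levels per kilobase of exon, PDE4D over PDE4B, was 2.62 ± 0.410 in Ctrl and 2.16 ± 0.0380 in NE-treated cells (SD, n = 3 each; two-sided exact permutation test, p = 0.2), and its ranges overlapped. An exact permutation test of 3 libraries against 3 cannot go below p = 0.1.

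PDE4A, a PDE4 gene of wide expression, did not share this rise. On the plus strand of chromosome 19, from 10416773 to 10469630 (ENSG00000065989), it has a GC content of 61.4%, against 41.5% for PDE4D and 42.9% for PDE4B. The Ctrl libraries held 196, 217 and 239 normalized counts and the NE libraries 157, 148 and 159. All NE values lay below all Ctrl values, but the gap was small. The log2 fold change was -0.48 (SE 0.149, 95% interval -0.82 to -0.15, adjusted p = 0.0236 from limma) and turned to 0.11 after the GC correction (adjusted p = 0.684). It was -0.41 without Ctrl replicate 3. The adjusted p was above 0.05, up to 0.0855, in 4 of 6 fits with a library removed. PDE4D changed from a level per kilobase of 0.334 ± 0.0512 times that of PDE4A in Ctrl to 3.77 ± 0.379 times in NE-treated cells (SD, n = 3 each; two-sided exact permutation test, p = 0.1).

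PDE4C, the least widespread member of the family, was read 5 times in Ctrl replicate 1 and not in the other Ctrl libraries. NE replicates 1 and 2 held 1 and 3 reads, and NE replicate 3 none. The groups overlapped, and no fold change is given at this depth. The annotated exons of PDE4C (ENSG00000105650; minus strand of chromosome 19, 18207965 to 18248200) share 73.8% of their bases with ENSG00000285188 on the same strand, so reads may have been split or dropped there.

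**Figure D2:**
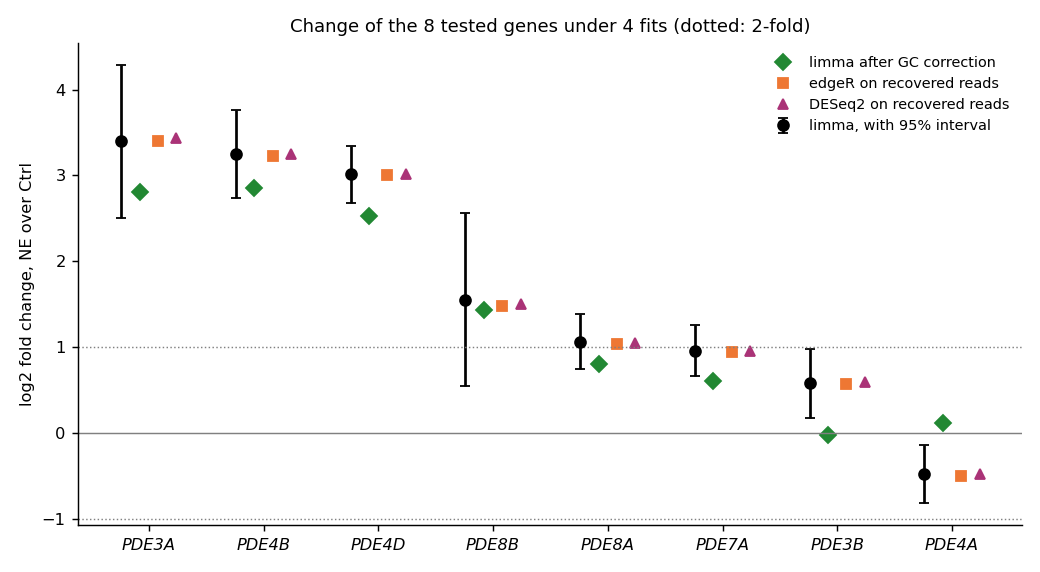
Log2 fold change of NE over Ctrl (y axis) for the 8 tested genes by limma with its 95% interval, by limma after the GC correction, and by edgeR and DESeq2 on the recovered reads. All fits of the first 4 genes lie above 1 on the log2 scale, whereas PDE3B and PDE4A sit on the other side of 0 after the GC correction.

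PDE3A encodes the PDE3 enzyme typical of heart, platelets and smooth muscle, and PDE3B that of fat and liver. PDE3A (ENSG00000172572) lies on the plus strand of chromosome 12 from 20368537 to 20688583. It was close to silent in Ctrl cells, with 4.19, 8.30 and 12.7 normalized counts, and reached 98.8, 79.4 and 95.9 with NE. These values rest on 25 reads in the Ctrl libraries together and 287 in the NE libraries. The groups were well apart, although the Ctrl libraries differed among themselves by about 3-fold. This gave a log2 fold change of 3.40 (SE 0.396, 95% interval 2.51 to 4.29, adjusted p = 0.000264 from limma), with 2.81 after the GC correction and 3.73 without Ctrl replicate 3. Because of the added count of 1 and the low Ctrl level, this value understates the ratio of the means, 8.41 ± 4.28 and 91.4 ± 10.5 (SD, n = 3 each), which was 10.9.

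PDE3B (ENSG00000152270; plus strand of chromosome 11, 14643804 to 14872044) started higher and moved little. Its normalized counts were 125, 105 and 126 in Ctrl and 196, 149 and 188 with NE. The groups did not overlap. The log2 fold change of 0.57 (SE 0.177, 95% interval 0.18 to 0.97, adjusted p = 0.0232 from limma) became -0.03 after the GC correction (adjusted p = 0.910), and was 0.62 without Ctrl replicate 3. The gene has a GC content of 39.3%, near that of PDE3A at 39.6%. Leaving out Ctrl replicate 2, NE replicate 1 or NE replicate 3 raised its adjusted p above 0.05, to at most 0.0892. Per kilobase of exon PDE3B exceeded PDE3A by 19.95 ± 12.3 times in Ctrl and 2.22 ± 0.0623 times in NE-treated cells (SD, n = 3 each; two-sided exact permutation test, p = 0.1).

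PDE7A and PDE7B encode high-affinity cAMP enzymes that are insensitive to inhibitors of PDE4. PDE7A (ENSG00000205268), on the minus strand of chromosome 8, had 238, 269.6 and 303 normalized counts in Ctrl and 528, 510.4 and 530.0 with NE. The NE libraries agreed closely and all lay above Ctrl. The log2 fold change was 0.96 (SE 0.134, 95% interval 0.66 to 1.26, adjusted p = 0.000567 from limma), 0.60 after the GC correction (adjusted p = 0.00339) and 1.04 without Ctrl replicate 3. That last fit is the only one of the 6 leaving out a library in which PDE7A was called. Its exons overlap 116 bases of MTFR1 on the other strand, 1.09% of their length, and MTFR1 had a log2 fold change of 0.55 (adjusted p = 0.0166 from limma) that turned to -0.12 after the GC correction.

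PDE7B (ENSG00000171408; plus strand of chromosome 6, 135851701 to 136195574) had 0 reads in all 3 Ctrl libraries and 16 reads over the NE libraries, at 5.93, 3.87 and 5.48 normalized counts. Against a floor of 3 reads over the Ctrl group its NE mean was 4.99-fold higher. This ratio allows for counting error in the Ctrl libraries only, and not for that of the 16 NE reads. Without the minimum mean the limma fit gave PDE7B an adjusted p of 0.00713. It was then the sixth gene called higher, against 4.99% of all 26025 genes higher and 3.78% lower. All Ctrl values of PDE7B are 0, so its log2 fold change of 2.59 in that fit depends on the added count of 1. The call therefore adds nothing beyond the reads given above. An antisense gene, PDE7B-AS1, shares 452 bases or 7.61% of its exons, and had 0.695 and 11.8 normalized counts in the group means. Strand use in the counting is not given in the sources used here, so reads of the pair cannot be told apart.

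PDE8A and PDE8B encode the enzymes with the highest affinity for cAMP, which PDE4 and PDE3 inhibitors leave active. PDE8A (ENSG00000073417; plus strand of chromosome 15, 84980440 to 85139145) was the most abundant of the 10 genes per kilobase of exon. Its normalized counts were 549.8, 662 and 792 in Ctrl and 1402, 1299.8 and 1441 with NE. The Ctrl libraries spread more than the NE libraries, but the groups did not overlap. The log2 fold change was 1.06 (SE 0.143, 95% interval 0.74 to 1.38, adjusted p = 0.000482 from limma). It stayed past the adjusted p but fell under the 2-fold criterion after the GC correction, at 0.80 (adjusted p = 0.00113), and without Ctrl replicate 1, at 0.93. Without Ctrl replicate 3 it was 1.19.

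PDE8B (ENSG00000113231; plus strand of chromosome 5, 77210449 to 77428256) was a weakly expressed gene. It had 11.5, 8.30 and 25.5 normalized counts in Ctrl and 38.5, 32.9 and 56.7 with NE, from 45 and 135 reads. Replicate 3 was the highest library of either group, and the groups were separated by a narrow gap. A log2 fold change of 1.55 had a wide error (SE 0.448, 95% interval 0.54 to 2.56, adjusted p = 0.0175 from limma), 1.43 after the GC correction and 1.98 without Ctrl replicate 3. Leaving out Ctrl replicate 2, NE replicate 1 or NE replicate 3 ended the call, with adjusted p of 0.0538, 0.0537 and 0.0805. Its exons share 51.6% of their bases with ENSG00000284762 on the same strand, which was not listed, and 6.85% with WDR41 on the other strand, so its level is uncertain. WDR41 had a log2 fold change of 0.37 that did not pass the test (adjusted p = 0.0709 from limma) and was -0.17 after the GC correction.

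**Figure D3:**
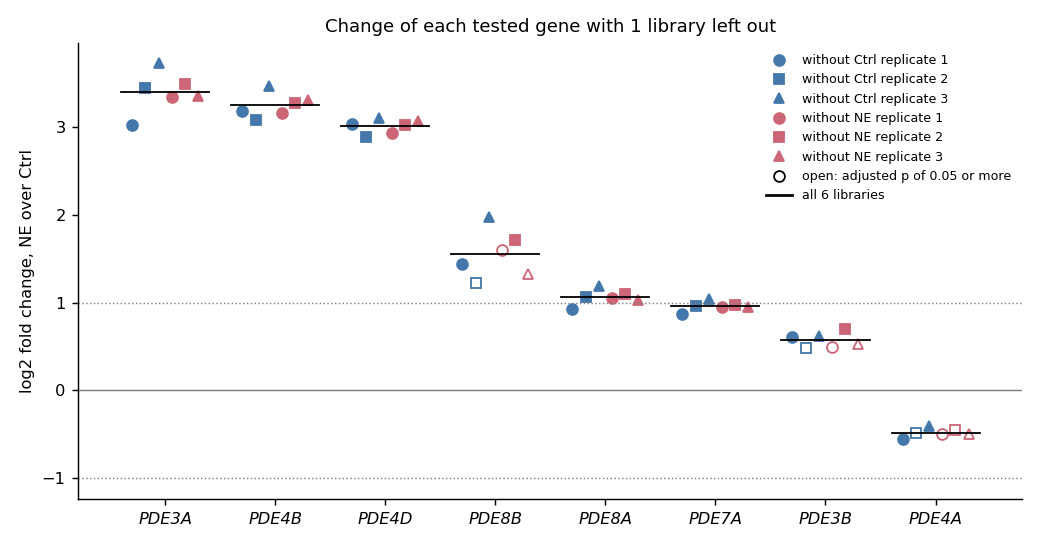
Log2 fold change of NE over Ctrl (y axis) for each tested gene with all 6 libraries (line) and with 1 library left out (points; open points have an adjusted p of 0.05 or more). PDE3A, PDE4B and PDE4D stayed between 2.89 and 3.73, and open points occur only for PDE8B, PDE3B and PDE4A.

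Levels were next compared between genes as reads per kilobase of merged exons and per megaread on genes (RPKM). In Ctrl cells PDE8A led at 4.64 ± 0.924, before PDE4A at 1.79 ± 0.209 and PDE7A at 1.42 ± 0.195 (SD, n = 3 each). PDE4A and PDE7A overlapped in range, although PDE4A was the higher of them in each Ctrl library. PDE4D followed at 0.594 ± 0.0973 and could not be told from PDE3B at 0.567 ± 0.0644. PDE4B at 0.234 and PDE8B at 0.151 overlapped as well, though not by canonical transcript length, and PDE4B was the higher of them in each Ctrl library. PDE3A, PDE4C and PDE7B were under 0.06 RPKM in every Ctrl library.

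After NE the order was different below PDE8A, which was at 10.5 ± 0.794 RPKM. PDE4D came next at 5.26 ± 0.276, then PDE7A at 3.01 ± 0.146 and PDE4B at 2.43 ± 0.155 (SD, n = 3 each). PDE4A, the gene next to PDE8A in Ctrl cells, was now in rank 5 at 1.40 ± 0.0839. PDE3B was at 0.933, PDE8B at 0.469, PDE3A at 0.419, PDE7B at 0.0523 and PDE4C at 0.0109, and among neighbours in the NE order by merged exons only PDE8B and PDE3A overlapped. With the length of the canonical transcript in place of merged exons, a choice made after seeing the data, PDE4B at 4.80 ± 0.306 stood above PDE7A at 4.59 ± 0.222 with overlapping ranges, and PDE4A and PDE3B overlapped too (SD, n = 3 each). Each step of the merged-exon order with no overlap had the smallest exact permutation p that 3 libraries allow, 0.1. That test took the genes of a step as separate groups, although they were read in the same libraries and ordered by these same values. It therefore cannot decide the order.

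Summed over the 10 genes, the level was 8.17, 8.97 and 11.2 RPKM in the Ctrl libraries and 24.6, 23.4 and 25.7 RPKM in the NE libraries. The group means of 9.44 ± 1.56 and 24.5 ± 1.14 RPKM (SD, n = 3 each) differed by 2.60-fold (two-sided exact permutation test, p = 0.1), and by 2.86-fold without Ctrl replicate 3. PDE4D provided 6.34% of the summed level in Ctrl and 21.5% in NE-treated cells, and PDE4B 2.45% and 9.94%. PDE4A went the other way, from 19.0% to 5.70%. PDE8A kept the largest share, 49.0% and 43.0%. By family, PDE4 genes made up 27.97% ± 1.68 of the sum in Ctrl and 37.2% ± 2.36 with NE, and PDE8 genes 50.5% ± 2.61 and 44.9% ± 2.01 (SD, n = 3 each). These sums describe transcripts and carry no information on enzyme activity.

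**Figure D4:**
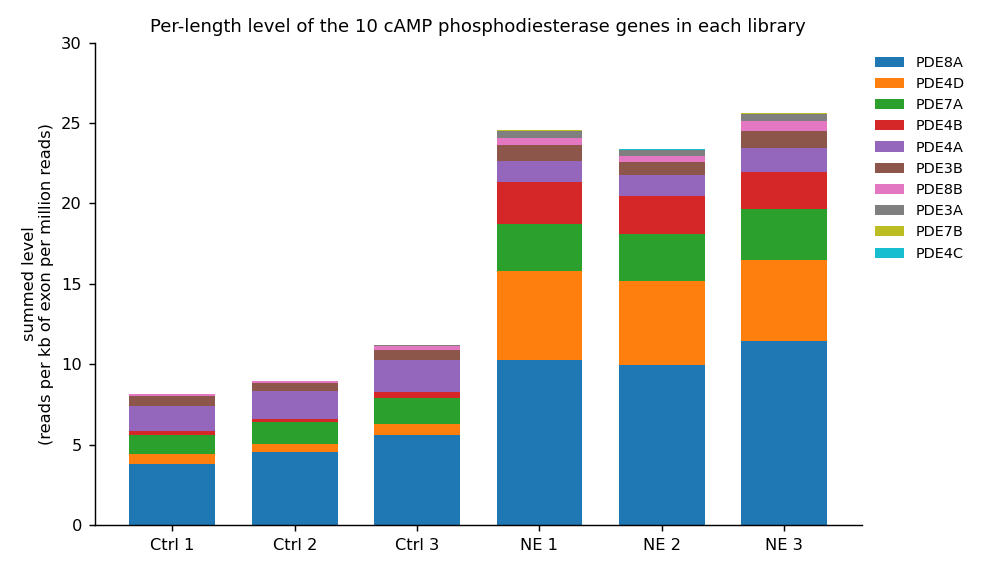
Level of the 10 genes stacked for each library, in RPKM (y axis from 0). The NE libraries reach 23.4 to 25.7 against 8.17 to 11.2 in Ctrl, and the PDE4D and PDE4B layers widen while the PDE4A layer narrows.

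The promoters of the genes were searched for the cAMP response element, the CREB site TGACGTCA, and for its short form TGACG, on both strands and with overlaps counted. RefSeq windows of GRCh38.p14 (hg38), from 250 bases before to 50 after a transcription start, were on hand for 8 of the 10 genes, 32 windows in all. PDE3B and PDE7A had no window. TGACG was in 4 of the 32 windows (12.5%) against 24.6% of all 35116 windows, and TGACGTCA in 2 of 32 (6.25%) against 1.85%. The windows with TGACG belonged to PDE4A, PDE4C, PDE4D and PDE7B. None was found in the 6 windows of PDE4B, in the window of PDE3A, or in those of PDE8A and PDE8B. The window of PDE3A, at 20571829 to 20572128, lay inside the gene, which begins at 20368537. The region at that annotated start was therefore not searched.

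The stretches that hold the letters are shown for PDE4A, which had the most, for PDE4D, the gene with the highest NE count among those that rose over 8-fold, and for PDE7B, read only with NE. Capitals mark the searched letters in either orientation.
PDE4A, chr19:10416665-10416777, plus strand, positions -108 to 5 from the start: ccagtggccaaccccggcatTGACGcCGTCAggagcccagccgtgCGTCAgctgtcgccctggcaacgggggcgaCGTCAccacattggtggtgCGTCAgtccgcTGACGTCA
PDE4D, chr5:59587658-59587702, minus strand: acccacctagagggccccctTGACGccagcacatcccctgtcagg
PDE7B, chr6:135851526-135851573, plus strand: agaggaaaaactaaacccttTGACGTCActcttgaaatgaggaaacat
The PDE4A stretch holds 7 matches, of which the last 2 form the full element across the start. PDE4D has 1 match in 1 of its 8 windows. The full element of PDE7B begins 155 bases before the start. The log2 fold change was -0.48 for PDE4A, with the most matches, and 0.11 after the GC correction. For PDE4B, with none, it was 3.25. Whether matches bear on the change of any of these genes was not tested. A match of letters is no evidence of binding, and these windows leave out distal elements and starts that the table lacks.

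Genes beside the called phosphodiesterase genes were read for comparison, as the nearest tested protein-coding gene on each side. Next to PDE4D, RAB3C, a small GTPase of secretory vesicles 110 kb away, was called higher with a log2 fold change of 2.39 (SE 0.652, adjusted p = 0.0136 from limma), from 4.09 to 21.5 normalized counts. Like PDE3A it passed the minimum mean only through its NE libraries, and its value ran from 1.60 with a pseudocount of 5 to 2.78 with 0.1. The call was lost after the GC correction (1.73, adjusted p = 0.0676) and without NE replicate 1, and without NE replicate 3 it was not tested. DEPDC1B on its other side had a value of 0.45 that turned to -0.21 after the GC correction. Next to PDE3A, the transporter gene SLCO1A2, 576 kb away, was called higher at 1.54 and no longer after the GC correction (0.90, adjusted p = 0.0874), whereas AEBP2 at 0.25 did not pass the test and turned to -0.32 after the GC correction. None of the 6 neighbours of PDE4B, PDE8A and PDE8B was called. Their log2 fold changes were 0.96 for LEPR, 0.54 for WDR78, 0.13 for ZNF592, 0.73 for AKAP13, 0.67 for ZBED3 and -0.17 for TBCA, and that of WDR78 turned to -0.12 after the GC correction. LEPR was called without Ctrl replicate 3, at 1.29, and the GC correction brought it to 0.23 (adjusted p = 0.355) and TBCA to -0.92 (adjusted p = 0.0282).

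The tested genes most like each called phosphodiesterase gene over the 6 libraries were found by the root mean square difference of centred log2 values. For PDE4D these were STC1 at 0.114, ARRDC3 at 0.133 and MAP7 at 0.138. PDE4B was nearest to NWD1 at 0.126, LONRF2 at 0.168 and then PDE4D itself at 0.177. For PDE3A they were CXCL8 at 0.244, PPP1R3C at 0.294 and LONRF2 at 0.322. PDE8A was matched by ESF1, MIER3 and EIF4E within 0.0514, and PDE8B by ABCA5 at 0.155, AC015813.6 at 0.205 and TIGAR at 0.210. The distances were smallest for PDE8A and largest for PDE3A. They describe 6 libraries in 2 groups and say nothing of shared control.

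Other genes of the cAMP pathway were described by lists. The list of other phosphodiesterase symbols held 14 genes, of which 5 were tested. Most encode enzymes of dual or cGMP specificity, but PDE6D, PDE6G and PDE6H do not encode catalytic subunits. Of the tested genes 2 were called higher and 0 lower by limma, and none was called lower by edgeR, DESeq2 or voom or at an unadjusted p. The median log2 fold change, which was the value of PDE6D, was -0.12 against 0.01 for all tested genes. After the GC correction these medians were 0.15 and -0.04. PDE10A, a dual-specificity enzyme best known from the striatum, rose from 475 to 1676 normalized counts, a log2 fold change of 1.84 (SE 0.154, adjusted p = 7.54e-05 from limma) that was 1.61 after the GC correction and 2.01 without Ctrl replicate 3. PDE5A, the cGMP enzyme inhibited by sildenafil, had 29.8 and 69.7 normalized counts, and its log2 fold change of 1.22 (adjusted p = 0.00494 from limma) was 0.59 and no longer past the threshold after the correction (adjusted p = 0.0951). PDE2A, which cGMP stimulates, had a log2 fold change of -0.60 (adjusted p = 0.00232 from limma), which was -0.07 after the correction.

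Genes of cAMP synthesis are the receptors, G proteins and adenylyl cyclases upstream. The list also holds GNAI1, GNAI2 and GNAI3, G protein subunits that inhibit adenylyl cyclase, so its counts and median mix activators with inhibitors. Of 17, 10 were tested, and 1 was called higher and 0 lower by limma, edgeR and DESeq2 and at an unadjusted p, while voom called ADCY7 lower. By adjusted p alone 3 were higher, among them GNAI1 (0.9996) and GNAI3 (0.38), and 5 lower, among them GNAI2 (-0.69). After the GC correction GNAI1 was at 0.33 and GNAI2 at -0.16, and GNAI3 turned to -0.27. The median log2 fold change of the list was -0.24, and -0.10 after the GC correction. GNAL, the olfactory paralogue of the stimulatory G protein alpha subunit, rose from 51.2 to 294 normalized counts, a log2 fold change of 2.501 (SE 0.176, adjusted p = 3.37e-05 from limma), with 2.57 after the GC correction and 2.59 without Ctrl replicate 3.

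Of the 13 effectors and exporters of cAMP, 12 were tested, 1 was called higher and 1 lower, and by adjusted p alone 6 were higher and 2 lower. Their median log2 fold change of 0.46 was -0.00 after the GC correction. The calls were the cAMP-activated exchange factors for RAP proteins. RAPGEF3 (EPAC1) fell by 1.66 on the log2 scale (SE 0.187, adjusted p = 0.000233 from limma), and its paralogue RAPGEF4 (EPAC2) rose by 1.07 (SE 0.286, adjusted p = 0.0125), at 25.7 and 53.9 normalized counts. After the GC correction these were -1.16 and 0.70, and without Ctrl replicate 3 -1.83 and 0.86. The call of RAPGEF4 was thus lost in both, and also with a pseudocount of 5 (0.96), under quantile normalization (0.98) and without NE replicate 2. With all 6 libraries no PKA subunit gene reached the 2-fold criterion, the nearest being PRKAR1B at -0.96, PRKACB at 0.90 and PRKAR2B at 0.87. Without Ctrl replicate 3 the list had 2 higher and 2 lower calls, and PRKACB, PRKAR2B and PRKAR1B were then past 2-fold.

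The list of proteins that anchor or bind phosphodiesterases held 18 genes, of which 15 were tested, 3 were called higher and 0 lower, the latter also by edgeR, DESeq2 and voom and at an unadjusted p. By adjusted p alone 5 were higher and 5 lower, and the median log2 fold change was 0.10, or -0.008 after the GC correction. The 3 calls were A-kinase anchoring proteins, which hold PKA and in some cases PDE4 enzymes at sites in the cell. AKAP9 had a log2 fold change of 1.45 (adjusted p = 5.19e-05 from limma), AKAP5 1.24 (adjusted p = 0.00886) and AKAP6 1.16 (adjusted p = 0.0112). After the GC correction none of them was called, at 0.76, 0.54 and 0.56. Without Ctrl replicate 3 they were at 1.50, 1.51 and 1.42, and the call of AKAP6 was lost without Ctrl replicate 2 or NE replicate 3.

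Other feedback regulators of the pathway numbered 10, of which 9 were tested, 3 called higher and 1 lower. CREM, whose transcripts include an inducible repressor of cAMP response elements, rose from 239 to 2405 normalized counts, a log2 fold change of 3.33 (SE 0.111, adjusted p = 4.65e-07 from limma), in the range of PDE3A and PDE4B. RGS2, which limits G protein signalling, rose by 1.80, and PKIA, an inhibitor of PKA, by 1.15. The receptor kinase gene GRK6 had a log2 fold change of -1.04 (adjusted p = 0.000283 from limma). After the GC correction CREM was at 2.89 and RGS2 at 1.28, whereas PKIA at 0.46 and GRK6 at -0.43 were under the 2-fold criterion. GRK6 was also under it without Ctrl replicate 3 (-0.95), without NE replicate 3 and under quantile normalization (-0.99). Without Ctrl replicate 3 CREM was at 3.38, RGS2 at 1.68 and PKIA at 1.35. By adjusted p alone this list had 4 genes higher and 3 lower, with a median log2 fold change of 0.17, or 0.19 after the GC correction.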

How the data were processed

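RNA from NCI-H1299 cells, 3 Ctrl and 3 NE libraries, was sequenced by the authors in paired reads. Per the submitters' processing notes reads were mapped to hg38 with HISAT2 2.0.5 and counted with featureCounts 1.5.0-p3. The gene annotation is not given in the sources used here. FPKM is named in the methods, whereas the signal that the authors deposited is counts over 1 size factor per library: dividing by the value of 1 read gave whole reads (within 0.01) for 100% of values. The group letter and replicate number in a column name assigned it to its library.

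The deposited values were tested with limma 3.58.1 (R 4.3.3; lmFit and eBayes with trend) on log2(value + 1), for genes with a mean of at least 10. Fold changes on this scale understate those of low genes. The thresholds follow the methods of the study. Alternatives were edgeR 4.0.16, DESeq2 1.42.0 and voom on the recovered reads, other pseudocounts and filters, quantile normalization, a replicate block, removal of a natural spline with 5 degrees of freedom on GC content (or GC content and length) per library, and each library left out. Positions, exon lengths and GC content came from GENCODE v44 on hg38, for 25813 of 26025 genes. Scripts were tested on simulated data. The genes, the lists and the tests were chosen with earlier results of these data known. Named were all 10 genes, called genes of the lists, genes overlapping the exons of the 10, tested coding neighbours of called genes and the 3 nearest patterns. Overlapping genes with few or no reads are not all described. A gene of the synthesis list is not reported here. Promoter windows came from RefSeq. Reads carry no molecular identifiers, and the floor used for PDE7B covers counting error of the Ctrl libraries only.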

Additional observations from a re-analysis of the deposited data

How the results depend on the processing

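Among all genes 1121 were called higher and 983 lower. The GC correction left 513 and 398, correction for GC content and length 502 and 347, and dropping the fold criterion gave 3693 and 3828. Leaving out 1 library gave 815 to 1628 and 777 to 1507, the highest of both without Ctrl replicate 3. Of the 10 genes, 5 were called higher and 0 lower. With a mean of at least 50 it was 3 higher, since PDE3A and PDE8B were not tested. With no fold criterion 1 was lower (PDE4A), and with a library left out 4 to 6 were higher and 0 lower. The summed level differed by 2.60-fold, by 2.43 to 2.86 with a library left out, 2.35 with TMM library sizes, 3.01 without length and 2.71 with canonical transcript length, the last chosen after seeing the data. Log2 fold changes that changed sign under the GC correction, and under that for GC content and length, were PDE3B (-0.030 and -0.12), PDE4A (0.11 and 0.018), MTFR1 (-0.12 and -0.051), WDR41 (-0.17 and -0.21), AEBP2 (-0.32 and -0.35), WDR78 (-0.12 and -0.14) and DEPDC1B (-0.21 and -0.10). GNAI3 of the synthesis list also changed sign under the GC correction, from 0.38 to -0.27. ZNF592 ranged from -0.024 without Ctrl replicate 3 to 0.21 without Ctrl replicate 1. The replicate numbers gave no sign of pairing, with correlations of deviations of -0.163, 0.0799 and -0.151. In the list of effectors the count of 1 higher call changed in 8 alternatives, to between 0 and 6. In the synthesis list the counts of 1 higher and 0 lower calls each changed in 5 alternatives. Without Ctrl replicate 3 that list had 2 higher and 1 lower. A replicate block left 1049 and 924 genes and the same count of 5 among the 10 genes, and of their 8 tests only PDE4A moved past 0.05 (adjusted p = 0.0549). The causes of these changes were not tested. PDE4C had 5 reads in Ctrl and 4 in NE libraries, and PDE7B 0 and 16.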
